A study of Mus musculus with 12 samples.

Results

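The comparison described here is FMT-SP against FMT-CON in mouse hippocampal tissue, 4 libraries against 4 of the 12 in the series. FMT stands for fecal microbiota transplantation, the transfer of gut microbes from a donor to a recipient, which both groups received. SP is the neuropeptide substance P. The series description names the same group FMT-DSS+SP, so FMT-SP differs from FMT-CON in the DSS arm as well as in substance P, and these parts cannot be told apart in this comparison. The third group, FMT-DSS, entered the estimate of the spread, the filter on low levels and the centring of list means, but not the difference itself. The meaning of CON and DSS, the step at which substance P was given, and the strain, age, sex and donors of the mice are not stated in the labels. Nothing in the labels says whether each library came from a separate animal, so p-values measure only the spread between these samples, which may be technical. All 27978 genes of the file were read, and the 12559 with a mean of at least 1 FPKM (fragments per kilobase of transcript and per 1000000 mapped fragments) over the 12 libraries were tested.

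Substance P is a peptide of the tachykinin family. It is cut from the product of Tac1, binds mainly the receptor encoded by Tacr1, and is broken down by peptidases such as those encoded by Mme and Ace. The hippocampus holds granule cells in the dentate gyrus, pyramidal cells in CA3, CA2 and CA1, interneurons and glia. It lies against the choroid plexus and ependyma of the lateral ventricle and over the thalamus, so a dissected piece can carry some of these tissues. Genes that mark these neighbours are therefore reported beside the hippocampal ones.

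The 8 libraries were alike in depth and unlike in neighbouring tissue. Depth, estimated from the steps of low FPKM values, ran from 33.5 to 36.8 × 1000000 fragments, and a transcript of 2000 bases at 1 FPKM rested on 67.1 to 73.7 fragments. These estimates are approximate: 40.2% to 43.0% of the low values used lay near whole fragment counts. Chance gives 10% at a depth fixed in advance. Each depth was chosen to make this share highest, so the gap to 10% overstates the support for it. FMT-CON 1 and FMT-SP 3 had the highest summed levels of the 17 thalamus markers (755 and 536 FPKM, against 271 to 385 in the other 6) and of the 14 choroid plexus markers (3950 and 4231, against 55.9 to 2243). FMT-CON 3 carried pituitary hormone genes at a sum of 3668 FPKM, against 75.4 to 113 in the other 7. FMT-SP 2 carried erythrocyte genes at 1564 FPKM, against 279 to 677. Between 15.9% and 27.7% of the summed FPKM lay in mitochondrially encoded genes, with the highest shares in the libraries numbered 4 (27.7% in FMT-CON 4 and 23.97% in FMT-SP 4). Pearson's r between libraries over the tested genes had a median of 0.979 within groups (12 pairs, 0.956 to 0.992) and of 0.979 between groups (16 pairs, 0.957 to 0.995). Of the variance over the 8 libraries, 7.24% lay between the groups, where 1 of 7 degrees of freedom equals 14.3%.

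No gene differed between FMT-SP and FMT-CON after adjustment over all genes, and most genes were close in level. In limma's test with Benjamini-Hochberg adjustment, 0 of 12559 genes had an adjusted p under 0.05 (0.0% called), and the smallest adjusted p was 1.0 after rounding. Before adjustment, 45 genes (0.358%) had a p under 0.05, of which 8 were higher (0.0637%) and 37 lower (0.295%) in FMT-SP. For comparison, 5% of the tested genes would be 628. At a share of 0.358%, a count of 0 in a gene list below is not a result about that list. That no gene of a list passed the adjusted test likewise only repeats the result over all genes. The 4 values of one group lay wholly outside those of the other in 62 genes (0.494%), 24 higher and 38 lower. The balance of the 45 moved with the scaling, to 12 higher and 28 lower with median-ratio scaling, 16 and 34 with quantile normalization, and 12 and 26 with the mitochondrially encoded genes left out. It moved more with single libraries, from 14 genes without FMT-SP 1 and 16 without FMT-SP 2 to 81 without FMT-CON 4, 126 without FMT-SP 4, 138 without FMT-CON 2 and 216 without FMT-SP 3. The median size of the change was 0.069 on the log2(FPKM + 1) scale, and the median change over all genes was -0.01. The 95% interval had a median half-width of 0.31 on that scale and for 97.5% of genes excluded a 2-fold difference in FPKM + 1, for 83.4% a 1.5-fold one. For the other 311 genes the interval reached past 2-fold, so at this spread a change of that size was not excluded. Changes below are FMT-SP minus FMT-CON on this log2(FPKM + 1) scale with the standard error of the model, which understates the change of genes at low levels. Levels are FPKM, given as mean ± SD over 4 libraries where not listed one by one. Of all tested genes, 5869 (46.7%) had a higher mean in FMT-SP and 6690 a lower one. Members of a list are measured in the same libraries and can move together. Counts of higher and lower members are thus not counts of independent observations.

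Of the 45 genes, all kept their direction when FMT-CON 1 and FMT-CON 3 were left out. The 45 were picked by their p in libraries that the second fit mostly reuses, so a kept direction adds no independent support. At an unadjusted p under 0.05 in both fits, 5 genes stayed (0.0398% of tested genes). These 5 are Cystm1, Tnfsf12 and Avp, lower in FMT-SP, and AA465934 and BC064078, higher in FMT-SP. The last pair, which the rule for named genes leaves out, was named after its values were seen. Over the 45, the median ratio of the change without these libraries to the change with them was 0.828. Fewer control libraries also widen the intervals, to a median half-width of 0.39, and the fit without them had 14 genes at an unadjusted p under 0.05 (0.111%) and 0 at an adjusted p under 0.05. When FMT-SP 3 was left out as well, 66 genes reached an unadjusted p under 0.05, 15 higher and 51 lower, and again 0 an adjusted one.

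Cystm1 encodes a small cysteine-rich membrane protein. It was at 27.3, 28.0, 29.6 and 25.7 FPKM in FMT-CON 1 to 4 and at 21.8, 19.1, 24.3 and 23.2 in FMT-SP 1 to 4. All FMT-SP libraries lay below all FMT-CON libraries, and no single library set the difference. The change was -0.31 ± 0.09 (limma, unadjusted p = 0.00563, adjusted p = 1.0), and -0.27 ± 0.12 without FMT-CON 1 and FMT-CON 3 (unadjusted p = 0.0496). It had an unadjusted p under 0.05 in 19 of 19 alternative settings, as did AA465934 and BC064078.

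Tnfsf12 (chromosome 11, 69686250 to 69695849 in GRCm38) encodes TWEAK, a ligand of the tumour necrosis factor family. Its FPKM was 1.72, 2.34, 2.50 and 3.47 in FMT-CON 1 to 4 and 1.52, 1.27, 1.85 and 1.49 in FMT-SP 1 to 4. The groups overlapped only through FMT-CON 1, the lowest control, and FMT-SP 3, the highest of its group. Without FMT-CON 1 and FMT-CON 3 the change went from -0.45 ± 0.16 to -0.61 ± 0.19. It was no longer at an unadjusted p under 0.05 without FMT-CON 4 or without the libraries numbered 4. The gene overlaps the readthrough gene Tnfsfm13 on its own strand and Tnfsf13os on the other, and the labels do not say how the counting divided such reads.

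Avp encodes the hypothalamic hormone vasopressin. It was at 2.61, 1.39, 0.589 and 3.43 FPKM in FMT-CON 1 to 4 and at 0.0452, 0.294, 1.34 and 0.680 in FMT-SP 1 to 4. FMT-CON 3 lay below FMT-SP 3 and FMT-SP 4, and the other controls lay above every FMT-SP library. The change was -0.88 ± 0.40 with all libraries and -1.10 ± 0.48 without FMT-CON 1 and FMT-CON 3, and it had an unadjusted p under 0.05 in 8 of 19 alternatives. Avp is a marker of hypothalamus, not of hippocampus. Of the 11 hypothalamus markers 4 were tested, and their summed level was 5.32 to 23.4 FPKM in FMT-CON and 4.59 to 10.9 in FMT-SP. The part of such tissue in the Avp values was not tested. Oxt, which encodes the sister hormone oxytocin, was too low to be tested, at 0 to 0.775 FPKM in FMT-CON and 0.0243 to 0.222 in FMT-SP.

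The transcripts higher in FMT-SP in both fits were non-coding in the annotation. AA465934, a processed transcript on chromosome 11 (83291699 to 83294632), was at 2.88, 3.29, 3.41 and 2.40 FPKM in FMT-CON and at 4.56, 5.02, 4.77 and 3.34 in FMT-SP. FMT-SP 4 fell inside the control range and the other FMT-SP libraries lay above it. BC064078, a transcribed pseudogene on chromosome 6 (128992952 to 129008040), was at 1.81, 1.49, 1.73 and 1.69 FPKM in FMT-CON and at 1.91, 2.34, 2.52 and 3.21 in FMT-SP, without overlap. Their changes were 0.44 ± 0.14 and 0.37 ± 0.11, and 0.49 ± 0.18 and 0.42 ± 0.15 without FMT-CON 1 and FMT-CON 3. As a pseudogene, BC064078 can share reads with a related copy, and its level is uncertain for that reason.

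**Figure D1:**
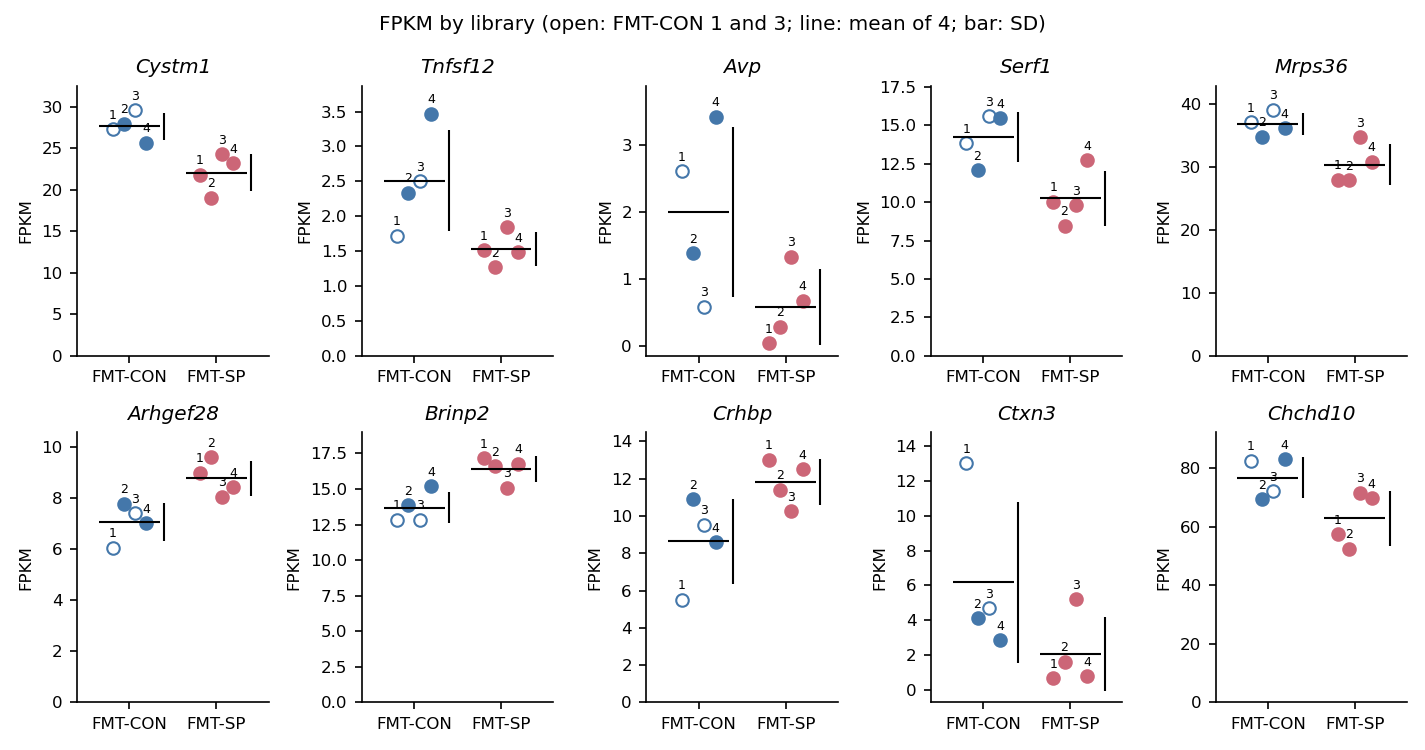
FPKM (vertical axes) of 10 genes in each FMT-CON and FMT-SP library, numbered by replicate, with FMT-CON 1 and 3 as open points, the mean of 4 as a line and the SD as a bar. Cystm1, Mrps36 and Arhgef28 have groups that do not overlap, while Ctxn3 reaches 13.04 FPKM in FMT-CON 1 alone.

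Genes with large changes differed in part between the fits with and without these 2 controls. A change of at least 0.5 in size was present in 46 genes with all libraries (0.366%), 6 higher (0.0478%) and 40 lower (0.318%), and in 35 genes without FMT-CON 1 and FMT-CON 3 (0.279%), 16 higher and 19 lower. The 2 sets had 13 genes in common, 28.3% of the 46 and 37.1% of the 35, and 3 of the 46 changed sign. Of the 13, Alas2 and Hbb-bt were higher in FMT-SP, and Ctxn3, Avp, Prl, Gh, Penk, Adora2a, Klk6, Lbhd2, Srp54b, Drd2 and Bcas1 were lower. These 13 were named after their values were seen. Alas2, the first enzyme of heme synthesis in red cells, was at 16.7 FPKM in FMT-SP 2 and at 1.03 to 3.11 in the other 7 libraries. Srp54b, one of several near-identical copies of a signal recognition particle gene, was at 5.87 FPKM in FMT-CON 4 and at 0.190 to 0.429 in the other 7.

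Ctxn3, which encodes a small neuronal membrane protein, had the largest change of the 45 genes, at -1.26 ± 0.49. It was at 13.04, 4.11, 4.70 and 2.87 FPKM in FMT-CON 1 to 4 and at 0.667, 1.61, 5.20 and 0.776 in FMT-SP 1 to 4. FMT-CON 1 and FMT-SP 3, the libraries highest in thalamus and choroid plexus markers, were also the highest of their groups here. Without FMT-CON 1 and FMT-CON 3 the change was -0.76 ± 0.54 (limma, unadjusted p = 0.189). The part of neighbouring tissue in the Ctxn3 values was not tested.

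**Figure D2:**
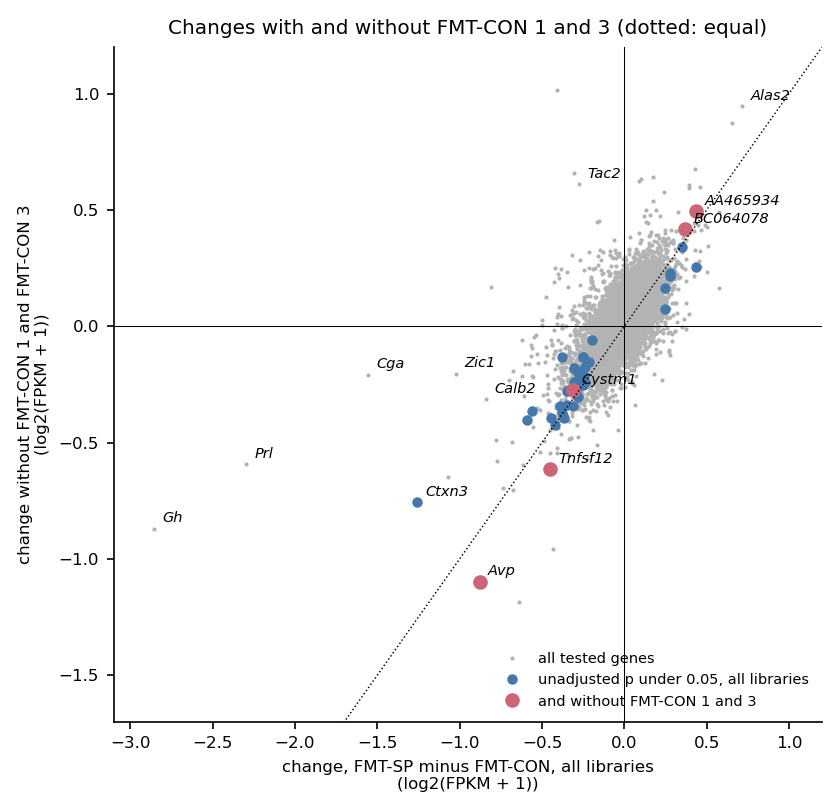
Change of each tested gene with all libraries (horizontal) and without FMT-CON 1 and FMT-CON 3 (vertical), both FMT-SP minus FMT-CON on the log2(FPKM + 1) scale. The hormone genes Gh and Prl move from -2.86 and -2.30 to -0.87 and -0.59, while the 5 large red points lie near the dotted line of equal change.

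The 12 higher genes of smallest p had unadjusted p between 0.0212 and 0.0754 in limma's test. Crhbp, which encodes a binding protein of corticotropin-releasing hormone made by interneurons, was at 5.52, 10.9, 9.54 and 8.60 FPKM in FMT-CON 1 to 4 and at 13.03, 11.4, 10.2 and 12.5 in FMT-SP 1 to 4. Only FMT-CON 2 lay within the FMT-SP range, and FMT-CON 1 was the lowest of the 8. The change of Crhbp was 0.44 ± 0.19, and 0.25 ± 0.19 without FMT-CON 1 and FMT-CON 3. Brinp2, a gene of neuronal differentiation on chromosome 1 (158245269 to 158356326), was at 12.9, 13.9, 12.9 and 15.2 FPKM in FMT-CON and at 17.2, 16.6, 15.1 and 16.8 in FMT-SP. The overlap came from FMT-CON 4 and FMT-SP 3 alone, and the change of 0.25 ± 0.09 became 0.16 ± 0.12 without the 2 controls. Rgs12, a brake on G protein signalling, had a change of 0.27 ± 0.11, and Agap2, a regulator of Arf GTPases and PI 3-kinase signalling in neurons, one of 0.25 ± 0.10. Agap2 was lowest in FMT-CON 1, at 93.8 FPKM against 114 to 144 in the other 7, and its change was 0.07 ± 0.09 without FMT-CON 1 and FMT-CON 3.

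Npr3, the clearance receptor of natriuretic peptides, was at 1.78 ± 0.455 FPKM in FMT-CON and 2.53 ± 0.466 in FMT-SP (SD, n = 4), and its change of 0.35 ± 0.15 was 0.34 ± 0.17 without the 2 controls. Arhgef28, an exchange factor of the GTPase RhoA, was at 6.06, 7.78, 7.41 and 7.02 FPKM in FMT-CON and at 9.01, 9.61, 8.05 and 8.43 in FMT-SP. Its groups did not overlap, with the closest values in FMT-CON 2 and FMT-SP 3. Sympk, a scaffold of the machinery that forms messenger RNA 3′ ends, was the other gene of these 12 without overlap, at 21.1 ± 1.57 and 23.6 ± 0.701 FPKM. In both, the exact permutation p over the 70 assignments of the libraries was 0.0286, the smallest it can reach, in genes picked by their p in the same libraries. The glycolysis genes Gapdh and Hk1 had changes of 0.30 ± 0.14 and 0.23 ± 0.12, and the ion channel gene Trpc4, the protease-family gene Rhbdl3 and the axon guidance gene Slit3 had changes of 0.25, 0.21 and 0.34. These 5 and Sympk had unadjusted p between 0.0505 and 0.0754 in limma's test. All 12 kept a change above 0 without FMT-CON 1 and FMT-CON 3, between 0.07 and 0.36, and 0 of them had an unadjusted p under 0.05 there. Genes picked by their p in mostly the same libraries are likely to keep their direction.

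The 12 lower genes of smallest p, again without predicted or unnamed symbols, had unadjusted p between 0.00563 and 0.0325 in limma's test. Mrps36, on chromosome 13 (100735955 to 100744659), encodes a small protein assigned to the mitochondrial ribosome and to the oxoglutarate dehydrogenase complex. It was at 37.2, 34.9, 39.1 and 36.2 FPKM in FMT-CON and at 28.0, 28.0, 34.8 and 30.9 in FMT-SP. FMT-SP 3 lay just under FMT-CON 2, and the groups did not overlap. Its change was -0.27 ± 0.11, and -0.22 ± 0.14 without the 2 controls. Chchd10, a protein of the mitochondrial intermembrane space, was at 82.6, 69.4, 72.3 and 83.1 FPKM in FMT-CON and at 57.4, 52.6, 71.7 and 69.8 in FMT-SP, where FMT-SP 3 and FMT-SP 4 reached the control range. Apool, a part of the complex that shapes the cristae, and Bphl, a hydrolase found in mitochondria, had changes of -0.37 ± 0.14 and -0.29 ± 0.10.

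The remaining lower genes had varied roles. Serf1, which encodes a small charged protein that affects protein aggregation, was at 13.8, 12.1, 15.6 and 15.5 FPKM in FMT-CON and at 10.04, 8.46, 9.79 and 12.7 in FMT-SP. Only FMT-SP 4 reached the control range, and the change was -0.44 ± 0.15, or -0.39 ± 0.20 without the 2 controls. Gjb2, a connexin of leptomeninges and other lining cells, had a change of -0.35 ± 0.14. Foxc1, a transcription factor of meningeal fibroblasts on chromosome 13 (31806633 to 31812476), was at 1.68, 1.55, 1.95 and 1.59 FPKM in FMT-CON and at 1.03, 1.31, 1.32 and 1.35 in FMT-SP, without overlap. The host transcript Snhg18 of a small nucleolar RNA and the little-studied Riiad1 had changes of -0.38 and -0.31. All 12 lower genes kept a change below 0 without FMT-CON 1 and FMT-CON 3, between -0.19 and -0.76, in libraries mostly shared with the fit that picked them.

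No tachykinin gene passed the test, and the highest level of Tac1, Tac2 and Tacr1 was in FMT-CON 1. Tac1, the substance P precursor, was at 14.1, 11.2, 6.18 and 7.79 FPKM in FMT-CON and at 5.603, 5.52, 8.97 and 8.62 in FMT-SP. FMT-CON 1 and FMT-CON 2 were above every FMT-SP library and the other controls lay inside the FMT-SP range. The change of Tac1 was -0.38 ± 0.43 with a 95% interval of -1.30 to 0.55, and -0.37 ± 0.54 without FMT-CON 1 and FMT-CON 3. Tac1 is also a striatum marker, and the striatum markers were highest in FMT-CON 1 and FMT-CON 2. Tac2, the neurokinin B precursor, was at 51.9 FPKM in FMT-CON 1, at 3.80 to 5.23 in the other controls and at 4.98 to 13.7 in FMT-SP, highest in FMT-SP 3. Its change turned from -0.28 ± 0.72 to 0.61 ± 0.60 without FMT-CON 1 and FMT-CON 3.

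The receptors of these peptides were below the level needed for a test. Tacr1, the substance P receptor, was at 1.84, 0.480, 0.298 and 0.309 FPKM in FMT-CON and at 0.183, 0.425, 0.827 and 0.392 in FMT-SP. FMT-CON 1 and FMT-SP 3 were the highest of their groups, and the other 6 libraries lay close together. Tacr3, the neurokinin B receptor, was at 0.510 to 1.07 FPKM in FMT-CON and 0.448 to 0.972 in FMT-SP, and Tacr2 stayed at or below 0.105 in all 8. Of the peptidases, Mme, Ace, Ece1 and Prep had changes of -0.08, 0.25, -0.02 and 0.09, with intervals as wide as -0.94 to 1.43 for Ace. Ace is high in choroid plexus, and its highest levels were 6.85 FPKM in FMT-CON 1 and 9.36 in FMT-SP 3. Of the 12 listed tachykinin genes and peptidases 6 were tested, 2 higher and 4 lower. Of these 6, 0 had an unadjusted p under 0.05, against 0.358% of all tested genes. Their median was -0.05, or 0.12 without FMT-CON 1 and FMT-CON 3.

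No marker of hippocampal neurons passed the test. The CA1 pyramidal list had 8 of 9 genes higher in FMT-SP, with a median of 0.20 against -0.01 over all genes. Without FMT-CON 1 and FMT-CON 3 the median was 0.00, with 5 higher and 4 lower. It was 0.12, with 9 of 9 higher, when FMT-SP 3 was left out as well. Itpka, a kinase of inositol trisphosphate in dendritic spines, was at 38.4, 64.0, 91.5 and 102 FPKM in FMT-CON and at 90.6, 77.0, 58.9 and 98.1 in FMT-SP. FMT-CON 1 was the lowest of FMT-CON and FMT-SP 3 the lowest of FMT-SP, the same libraries that were highest in thalamus markers. In tissue libraries, fewer cells of a type and less RNA per cell cannot be told apart. Mpped1, another CA1 marker, had a difference of 0.39 ± 0.28 with all libraries and of 0.05 ± 0.22 without the 2 controls. Wfs1, an endoplasmic reticulum protein of CA1 cells, had a change of 0.00 in both fits to 2 decimals.

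CA3 and CA2 markers (11 tested, 3 higher and 8 lower) had a median of -0.17, and 0.02 without FMT-CON 1 and FMT-CON 3. With FMT-SP 3 left out too it was -0.05, with 4 higher and 7 lower. Pcp4, a calmodulin regulator of CA2 and thalamus, was at 1188 FPKM in FMT-CON 1 and at 788 in FMT-SP 3, against 236 to 414 in the other 6 libraries. Dentate granule markers (13 tested, 5 higher and 8 lower) had a median of -0.04, or 0.04 with 8 higher and 5 lower without the 2 controls. Prox1, the transcription factor that defines granule cells, was at 11.9 ± 2.58 FPKM in FMT-CON and 11.6 ± 3.22 in FMT-SP (SD, n = 4), and Calb1, a calcium buffer, at 57.9 ± 8.60 and 55.1 ± 6.19. Interneuron markers (15 tested, 11 higher and 4 lower) had a median of 0.08, or 0.03 without the 2 controls. Pvalb, the calcium buffer of fast-spiking interneurons, had a change of -0.28 ± 0.17, and Reln, a secreted guidance protein, one of 0.38 ± 0.26. In these 4 lists of neurons 0 genes had an unadjusted p under 0.05, against 0.358% of all tested genes.

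Oligodendrocyte markers had lower means in FMT-SP for 13 of 13 genes, with a median of -0.33, where 6690 of all 12559 genes were lower. An unadjusted p under 0.05 was met by 0 of the 13, against 0.358% of all tested genes. Without FMT-CON 1 and FMT-CON 3 the median was -0.15, with 1 higher and 12 lower, and it was -0.38 when FMT-SP 3 was left out as well. Mbp, a main protein of myelin, was at 762, 549, 432 and 603 FPKM in FMT-CON and at 348, 380, 622 and 436 in FMT-SP. FMT-SP 3 lay above every control but FMT-CON 1, and FMT-SP 1 and FMT-SP 2 lay below all controls. Bcas1, a gene of newly formed oligodendrocytes, had changes of -0.51 ± 0.28 and, without the 2 controls, -0.54 ± 0.33. Within each group the library means of this list followed the thalamus markers at the top, with 0.81 in FMT-CON 1 and 0.50 in FMT-SP 3 for oligodendrocytes and 1.77 and 1.04 for thalamus. The part of white matter or thalamus in the oligodendrocyte values was not tested.

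With all libraries, no marker of astrocytes, microglia or vessels had an unadjusted p under 0.05, against 0.358% of all tested genes. Astrocyte markers had 9 of 13 higher with a median of 0.05, and 13 of 13 higher with a median of 0.12 without FMT-CON 1 and FMT-CON 3. In that second fit 1 of the 13 had an unadjusted p under 0.05, against 0.111% of all tested genes. With FMT-SP 3 left out as well, 9 of 13 were higher with a median of 0.12. Slc1a3, a glutamate transporter of astrocytes, was at 64.2 ± 15.1 and 75.5 ± 14.1 FPKM, a change of 0.24 ± 0.20. Microglia markers had 8 of 12 tested higher with a median of 0.04, and 6 of 12 with a median of 0.02 without the 2 controls. Cx3cr1, the fractalkine receptor of microglia, was at 9.84, 13.1, 9.76 and 7.37 FPKM in FMT-CON and at 9.53, 12.2, 13.9 and 8.44 in FMT-SP, so the groups covered nearly the same range. Tmem119 was at 7.64 ± 0.603 and 7.62 ± 0.680 FPKM, with a 95% interval of the change from -0.52 to 0.51. Endothelial and mural markers had 9 of 13 higher with a median of 0.08, or 0.19 without the 2 controls, and Pecam1 a change of 0.19 ± 0.22. Oligodendrocyte precursor markers had 4 of 10 higher with a median of -0.09, and the 2 tested blood leukocyte markers had a median of 0.05.

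The pituitary, ependymal, erythrocyte, thalamus and striatum lists had the medians largest in size of the 45 lists, and those of pituitary, ependymal and thalamus lay closer to 0 without FMT-CON 1 and FMT-CON 3. Of 16 tested thalamus markers 15 were lower in FMT-SP, with a median of -0.41, which was -0.08 without the 2 controls and -0.51 when FMT-SP 3 was left out too. Tcf7l2, a transcription factor of thalamic neurons, was at 17.7, 2.48, 0.853 and 1.70 FPKM in FMT-CON and at 0.540, 1.38, 7.404 and 0.512 in FMT-SP. FMT-CON 1 and FMT-SP 3 stood above the other 6 libraries, which overlapped. Of 10 ependymal markers 10 were lower, with a median of -0.46, or -0.05 without the 2 controls and -0.36 without FMT-SP 3 as well. Choroid plexus markers (13 tested, 4 higher and 9 lower) had a median of -0.06 and library means from -1.52 to 1.56. Their median was 0.16 with 11 higher without the 2 controls, and -0.41 with 13 lower without FMT-SP 3 as well. Ttr, the transthyretin gene, was at 3561, 2017, 83.5 and 27.2 FPKM in FMT-CON and at 14.7, 1835, 3779 and 51.7 in FMT-SP. High and low libraries of Ttr occurred in both groups, and the interval of its change ran from -4.30 to 3.52.

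Of 13 striatum markers, 13 were lower in FMT-SP, and 13 of 13 were also lower without FMT-CON 1 and FMT-CON 3, with medians of -0.38 and -0.32. Penk, the enkephalin precursor, was at 51.8, 50.2, 19.7 and 21.8 FPKM in FMT-CON and at 17.0, 12.4, 39.3 and 19.1 in FMT-SP. FMT-CON 1 and FMT-CON 2 lay above all FMT-SP libraries, while FMT-CON 3 and FMT-CON 4 lay within their range. Ppp1r1b, a dopamine-regulated phosphatase inhibitor, was at 73.0, 58.8, 28.9 and 27.9 FPKM in FMT-CON and at 25.1, 26.8, 50.2 and 27.8 in FMT-SP. Adora2a and Drd2, receptors of striatal projection neurons for adenosine and dopamine, were at 4.08 to 7.97 FPKM in FMT-CON 1 and FMT-CON 2 and at 0.408 to 1.39 FPKM in FMT-CON 3 and FMT-CON 4. With FMT-CON 1 out, FMT-CON 2 still carried the striatum markers, at a sum of 220 FPKM against 96.2 in FMT-CON 4 and 91.3 to 175 in FMT-SP. The part of striatal tissue in these values was not tested.

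The pituitary list had a median of -1.18 with all 6 tested genes lower, and -0.14 without the 2 controls. Gh, growth hormone, was at 8.61, 6.99, 2899 and 13.2 FPKM in FMT-CON and at 3.46, 1.25, 4.496 and 19.9 in FMT-SP. FMT-CON 3 stood far above the other 7 libraries, and the change of Gh was -2.86 ± 1.51 with all libraries and -0.87 ± 0.72 without the 2 controls. Erythrocyte genes (6 of 6 higher, median 0.45) had the opposite pattern, with Hbb-bs, a hemoglobin gene, at 682 FPKM in FMT-SP 2 and at 73.4 to 217 in the other 7. Meningeal markers had 7 of 8 lower with a median of -0.21, or -0.04 without the 2 controls, and held Foxc1 and Crabp2 at an unadjusted p under 0.05 (2 of 8, against 0.295% of all genes called lower). Crabp2, a carrier of retinoic acid, was at 1.59, 1.40, 4.06 and 2.26 FPKM in FMT-CON and at 0.8286, 1.17, 1.06 and 1.45 in FMT-SP. The groups met at FMT-CON 2 and FMT-SP 4, and FMT-CON 3 was highest. The summed level of the meningeal list was 450 to 787 FPKM in FMT-CON and 414 to 693 in FMT-SP, and its part in the Foxc1, Gjb2 and Crabp2 values was not tested.

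**Figure D3:**
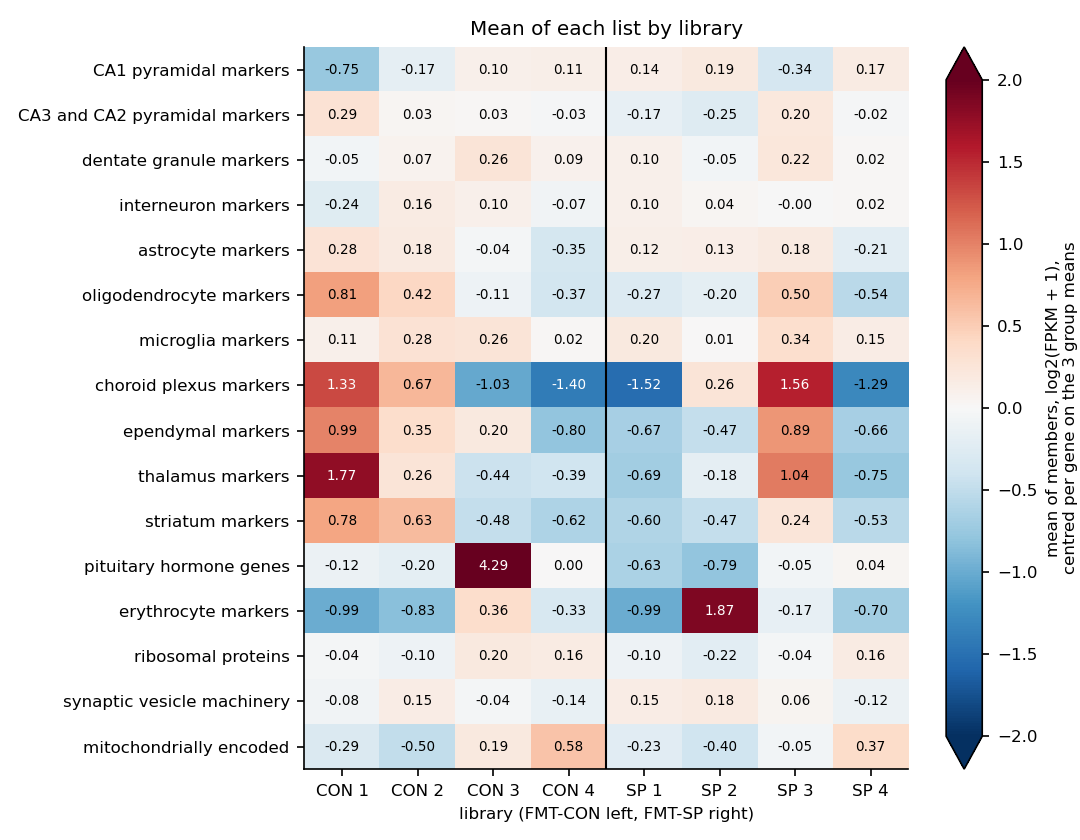
Mean of each gene list in each library on the log2(FPKM + 1) scale, centred per gene on the mean of the 3 group means, with lists as rows and libraries as columns. FMT-CON 1 and FMT-SP 3 share high thalamus values (1.77 and 1.04) and low CA1 values (-0.75 and -0.34), and the pituitary value of FMT-CON 3 (4.29) lies beyond the colour scale.

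Genes that respond to corticosteroids, to the clock and to neuronal activity overlapped between the groups. The glucocorticoid response list had 12 of 20 higher with a median of 0.03, and 17 of 20 with 0.17 without FMT-CON 1 and FMT-CON 3. With FMT-SP 3 left out as well, 19 of 20 were higher with a median of 0.26. Fkbp5, a chaperone of the glucocorticoid receptor, was at 18.9, 16.7, 18.8 and 18.8 FPKM in FMT-CON and at 27.5, 22.4, 15.5 and 17.7 in FMT-SP. FMT-SP 1 and FMT-SP 2 lay above the narrow control range and FMT-SP 3 below it, and the change was 0.14 ± 0.18. Sgk1, a kinase induced by corticosteroids, was at 39.3, 22.8, 33.8 and 12.3 FPKM in FMT-CON and at 30.7, 35.01, 17.3 and 25.9 in FMT-SP. The controls removed were its highest, so the change of 0.09 ± 0.31 became 0.63 ± 0.29 without them. Ddit4, which restrains the growth kinase mTOR under stress, likewise had 0.24 ± 0.25 with all libraries and 0.58 ± 0.27 without those 2, at unadjusted p of 0.351 and 0.0597 in limma's test. The receptor genes Nr3c1 and Nr3c2 had changes of 0.03 and 0.08, with 95% intervals of -0.64 to 0.69 and -0.20 to 0.35.

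The clock list had 5 of 18 genes higher with a median of -0.06, and 15 of 18 with 0.07 without the 2 controls. Leaving out FMT-SP 3 too gave 15 of 18 with 0.12. Dbp, an output gene of the clock, was at 23.4, 12.6, 23.5 and 19.7 FPKM in FMT-CON and at 15.4, 14.4, 11.1 and 22.8 in FMT-SP. Its 2 highest libraries were FMT-CON 1 and FMT-CON 3, and the change of -0.30 ± 0.23 was -0.03 ± 0.27 without them. Immediate early genes had 6 of 17 higher with a median of -0.07, or 12 of 17 with 0.10 without the 2 controls. Leaving out FMT-SP 3 too gave 13 of 17 with 0.22. Ier2, one of the early response genes, had a change of -0.28 ± 0.15, and Fosb, a part of the AP-1 factor, one of -0.30 ± 0.27 with its highest value, 3.64 FPKM, in FMT-CON 3. The direction of the median in both lists thus depended on the 2 controls. Of their 35 tested genes 0 had an unadjusted p under 0.05, against 0.358% of all tested genes.

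No gene of the inflammatory lists passed the test. The NF-kB list had 9 of 20 genes tested, 5 higher and 4 lower, with a median of 0.04. Rela, the p65 subunit, was at 6.58, 5.70, 5.10 and 7.32 FPKM in FMT-CON and at 5.34, 5.50, 6.09 and 5.95 in FMT-SP. The FMT-SP values lay inside the control range, and the 95% interval of the change was -0.33 to 0.16. Il1b and Tnf, which encode inflammatory cytokines, were at or below 0.289 and 0.0333 FPKM in all 8 libraries and were not tested. Antigen presentation genes had 6 of 8 lower with a median of -0.11, or 0.00 without the 2 controls, and B2m, the light chain of class I molecules, was at 122 ± 20.3 and 107 ± 14.7 FPKM. Complement genes had 5 of 7 lower with a median of -0.09, or 0.00 without the 2 controls. Reactive astrocyte genes had 8 of 9 lower with a median of -0.07, and 5 of 9 lower with -0.11 without the 2 controls, and Gfap, the astrocyte filament, was at 43.6 ± 6.65 and 41.4 ± 6.35 FPKM. Interferon-stimulated genes had 7 of 11 higher with a median of 0.01, or 0.02 without the 2 controls. None of these lists held a gene at an unadjusted p under 0.05, against 0.358% of all tested genes.

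**Figure D4:**
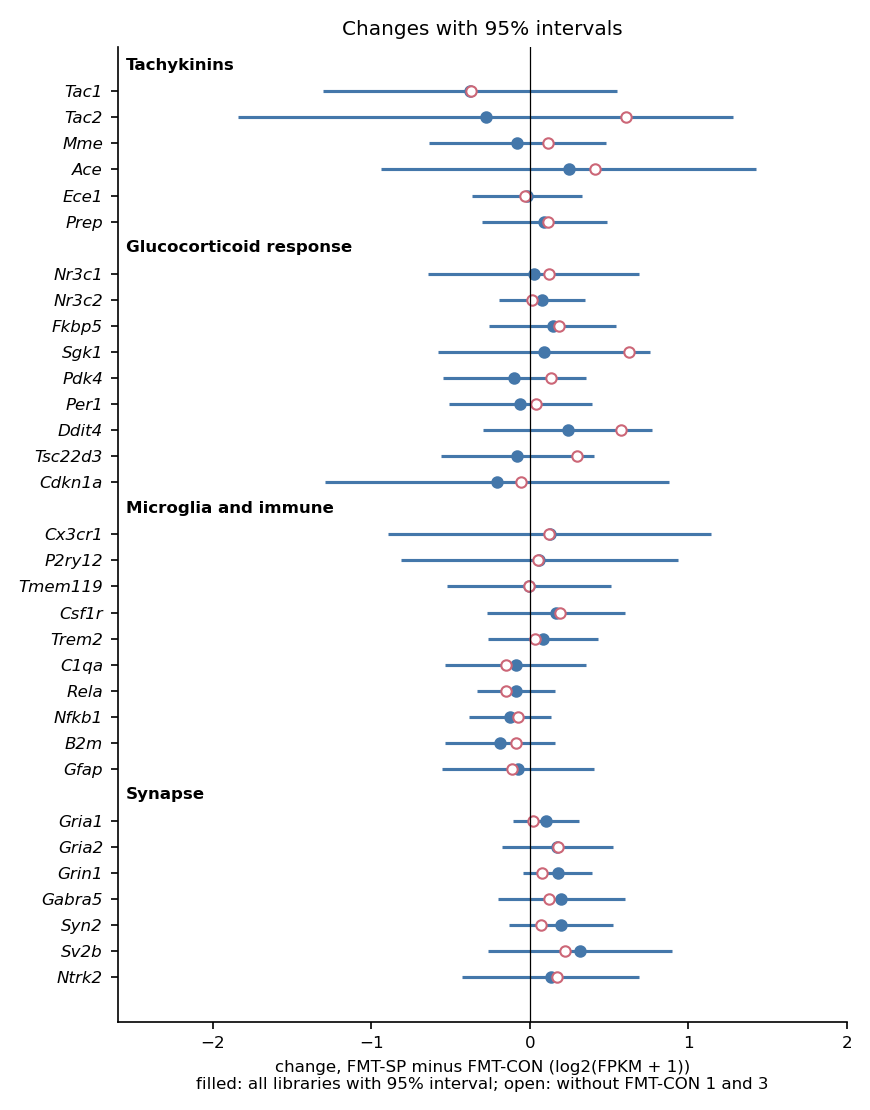
Change of single genes, FMT-SP minus FMT-CON on the log2(FPKM + 1) scale, as filled points with 95% intervals for all libraries and open points without FMT-CON 1 and FMT-CON 3. Every interval shown includes 0, and Tac2, Sgk1 and Ddit4 have open points furthest to the right, at 0.61, 0.63 and 0.58.

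No gene of protein synthesis, respiration or protein folding in the lists passed the test. Ribosomal proteins of the cytosol had 24 of 26 lower with a median of -0.11, and 24 of 26 with -0.08 without the 2 controls. The library means were -0.04, -0.10, 0.20 and 0.16 in FMT-CON and -0.10, -0.22, -0.04 and 0.16 in FMT-SP, so the groups overlapped. Nuclear genes of oxidative phosphorylation had 19 of 24 lower with a median of -0.09, and 18 of 24 with -0.06 without the 2 controls. Cox5a, a subunit of cytochrome c oxidase, was at 43.2 ± 3.55 and 37.7 ± 3.93 FPKM, a change of -0.20 ± 0.10.

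The mitochondrially encoded genes had 10 of 13 lower with a median of -0.09, which was -0.18 without the 2 controls and 0.00 after quantile normalization, and they were high in the libraries numbered 4 of both groups. The unfolded protein response list had 15 of 17 lower with a median of -0.12, and 12 of 17 with -0.08 without the 2 controls. Hspa5, the main chaperone of the endoplasmic reticulum, was at 89.1, 90.5, 83.7 and 90.1 FPKM in FMT-CON and at 70.2, 70.9, 84.9 and 80.2 in FMT-SP. FMT-SP 3 alone reached the control range. Ddit3, the stress factor CHOP, was at 8.54 ± 0.934 and 6.92 ± 0.637 FPKM. Heat shock genes had 13 of 15 lower with a median of -0.06, or 9 of 15 with -0.02 without the 2 controls, and Cryab, a small heat shock protein of oligodendrocytes, a change of -0.49 ± 0.29. Across these 5 lists 0 of 95 tested genes had an unadjusted p under 0.05, against 0.358% of all tested genes. The medians of all but the mitochondrially encoded list stayed below 0 under the 3 rescalings.

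No gene of the synaptic, channel and receptor lists passed the test. Without FMT-CON 1 and FMT-CON 3 the median over all genes was 0.02. Synaptic vesicle genes had 19 of 21 higher with a median of 0.12, and 17 of 21 with 0.06 without FMT-CON 1 and FMT-CON 3. Their library means overlapped, at -0.14 to 0.15 in FMT-CON and -0.12 to 0.18 in FMT-SP. Syn2, a phosphoprotein that tethers vesicles, was at 65.6, 103, 116 and 104 FPKM in FMT-CON and at 116, 109, 98.0 and 115 in FMT-SP. FMT-CON 1 was the lowest by far, and the other controls overlapped FMT-SP, so the change of 0.20 ± 0.15 was 0.07 ± 0.11 without the 2 controls. Potassium channels had 18 of 21 higher with a median of 0.07, and 17 of 21 with 0.08 without them, among them Kcnk9, a leak channel, with a change of 0.25 ± 0.16. Calcium and sodium channels had 16 of 18 higher with a median of 0.06, and 10 of 18 with 0.00 without the 2 controls.

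Glutamate receptors had 15 of 22 higher with a median of 0.08, and 15 of 22 with 0.03 without the 2 controls. Grin1, the obligate NMDA receptor subunit, was at 82.0, 88.4, 79.9 and 97.9 FPKM in FMT-CON and at 106, 106, 89.7 and 93.0 in FMT-SP. Only FMT-CON 4 lay within the FMT-SP range, and the change was 0.18 ± 0.10, or 0.08 ± 0.12 without FMT-CON 1 and FMT-CON 3. Gria1, an AMPA receptor subunit of CA1, was at 108 FPKM in FMT-CON 1 and at 137 to 148 in the other 7. GABA receptors had 9 of 14 higher with a median of 0.05, and 13 of 14 with 0.13 without the 2 controls. Neurotrophins and their receptors had 6 of 6 higher with a median of 0.09, and Bdnf, which supports synaptic plasticity, was at 4.93 ± 1.01 and 5.07 ± 0.553 FPKM. Adult neurogenesis genes had 6 of 11 higher with a median of 0.01, or 5 of 11 with -0.01 without the 2 controls, and Dcx, a marker of immature neurons, was at 2.27 ± 0.577 and 2.56 ± 0.369 FPKM. The lists of these 2 paragraphs held 0 genes at an unadjusted p under 0.05, against 0.358% of all tested genes.

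**Figure D5:**
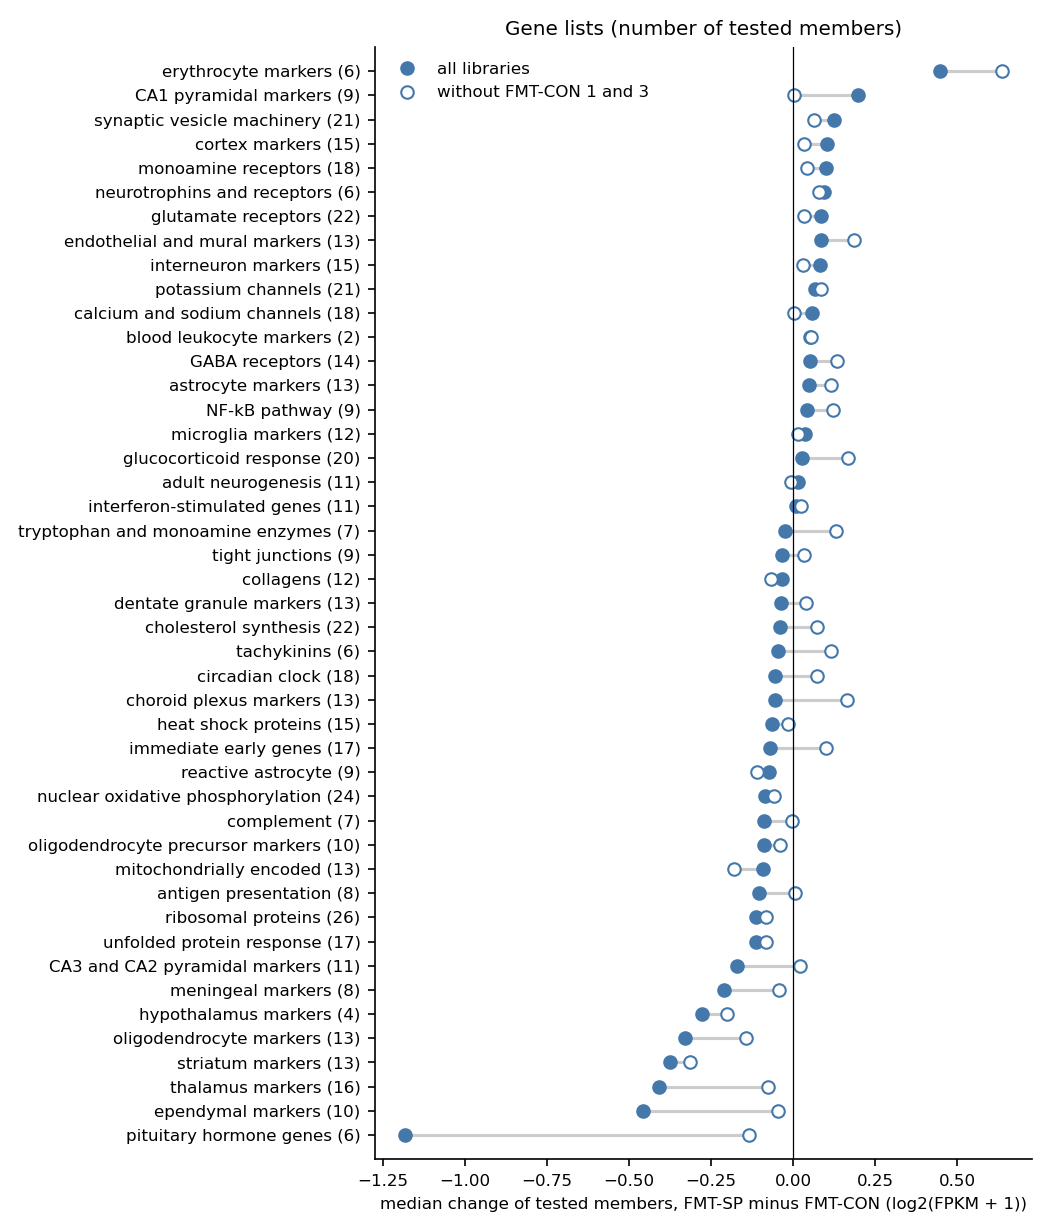
Median change of the tested members of 45 gene lists, FMT-SP minus FMT-CON on the log2(FPKM + 1) scale, with filled points for all libraries and open points without FMT-CON 1 and FMT-CON 3. The pituitary, ependymal and thalamus medians move from -1.18, -0.46 and -0.41 to -0.14, -0.05 and -0.08, while the striatum median moves from -0.38 to -0.32.

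Barrier, lipid and neurotransmitter enzyme genes completed the lists and held 0 genes at an unadjusted p under 0.05, against 0.358% of all tested genes. Tight junction genes had 4 of 9 higher with a median of -0.04, or 0.03 without the 2 controls. Cholesterol synthesis genes had 9 of 22 higher with a median of -0.04, or 0.07 without the 2 controls, and all 22 intervals lay within 2-fold of FPKM + 1. Monoamine receptors had 13 of 18 tested higher with a median of 0.10, and Htr2a, a serotonin receptor, was at 1.24 ± 0.777 and 2.15 ± 1.21 FPKM. Tryptophan and monoamine enzymes had 2 of 7 tested higher with a median of -0.03, or 0.13 without the 2 controls. Collagens had 6 of 12 higher with a median of -0.04, and cortex markers 10 of 15 with 0.10.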

How the data were processed

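Total RNA of hippocampal tissue was sequenced on Illumina machines, per the labels' protocols, in 12 libraries of 3 groups of 4. The authors deposited 1 table of FPKM values per gene. The submitters' processing notes name HISAT2 2.0 and the build mm8 without their roles. The counter, annotation and use of strand are not given in the sources at hand. Depth was estimated from the steps of low FPKM values and covers counting error only. It used gene lengths of the GENCODE vM21 annotation, which may differ from those of the authors. All per-sample columns were mapped (0 not used).

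Genes averaging 1 FPKM or more across all 12 libraries entered the test, on log2(FPKM + 1), with limma 3.58.1 (R 4.3.3, trended variance). All 3 groups entered 1 fit, and p was adjusted by Benjamini-Hochberg over all tested genes at a threshold of 0.05. The same fit was repeated without FMT-CON 1 and FMT-CON 3, and a gene stays where both fits give the same direction at an unadjusted p under 0.05. The fit was tested on simulated data. Exact permutation tests are two-sided.

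Named genes are the 12 higher and 12 lower of smallest p, genes that stay, the tachykinin list, from each list no more than 4 genes with the lowest p, and the highest member of each marker list. Predicted or unnamed symbols were counted only. Other genes are said to be named after their values were seen, and so are Prox1, Tmem119, Wfs1, Bdnf, Nr3c1 and Oxt. The genes and the 45 lists were chosen with earlier results of these data known. Alternatives changed the pseudocount, filter, scaling, groups fitted, replicate block and libraries. Positions are from the GENCODE vM21 annotation of GRCm38, matched by symbol for 21049 genes, not from the build in the notes. Some named genes of the lists are not reported here.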

Additional observations from a re-analysis of the deposited data

Results flagged for a closer look

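A library was marked where it stood apart from the other 3 of its group by Dixon's criterion, which chance meets in about 1 in 20 groups. Of 146 groups examined, 8 met it. Foxc1 stood apart at 1.03 FPKM in FMT-SP 1, the lowest of its group. The other 7 are library means of gene lists on the centred log2(FPKM + 1) scale. FMT-SP 3 stood apart with a low mean of CA1 pyramidal markers (-0.34) and high means of ependymal (0.89) and striatum markers (0.24). FMT-SP 4 stood apart with low means of GABA receptors (-0.23), monoamine receptors (-0.22) and astrocyte markers (-0.21). FMT-CON 3 stood apart with a mean of 4.29 for the pituitary hormone genes.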

How the results depend on the processing

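Genes at an adjusted p under 0.05 numbered 0 in the main comparison under all 19 alternatives. The 27 lead genes kept their direction in 513 of 513 values. They were picked by their p in libraries that the alternatives mostly reuse, so this result was largely fixed in advance. The count of 45 genes at an unadjusted p under 0.05 became 119 with a filter at a mean of 0.1 FPKM, 456 with no filter, 72 with FMT-CON and FMT-SP alone in the fit, 102 without the libraries numbered 4, and 14 without FMT-CON 1 and FMT-CON 3. Leaving out 1 library at a time gave 14 to 216, a count lower by over 1.5 times without FMT-SP 1 or FMT-SP 2 and higher by over 1.5 times without FMT-CON 2, FMT-CON 4, FMT-SP 3 or FMT-SP 4. The 5 genes that stay became 3 with a pseudocount of 0.1, 31 and 177 with the lower filter and none, 8 with quantile normalization, 8 with FMT-CON and FMT-SP alone, 3 without the libraries numbered 4, and 2 to 48 with 1 library left out. The cause was not tested. Without a filter, the fit lacking FMT-CON 1 and FMT-CON 3 had 8 genes at an adjusted p under 0.05. With the filter at 0.1 or 1 FPKM it had 0, so the 8 appeared only with genes below 0.1 FPKM let in. That fit rests on 2 controls, and the 8 are not read as differences.

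With the replicate block the counts were 310 and 59. The labels do not say what the replicate number stands for, so a pairing or batch behind it cannot be told from them. Deviations of same-numbered FMT-CON and FMT-SP libraries correlated at -0.33, 0.53, -0.45 and 0.84. The highest of these was between the libraries numbered 4, and FMT-CON 1 correlated best with FMT-SP 3 (0.68). Of 854 list medians under the alternatives 30 moved by more than the spread, as did 14 of 4043 values of other named genes. The spread was the SD of the FMT-SP library means for a list, and the pooled SD within groups for a gene. It is wide in some lists, with choroid plexus means from -1.52 to 1.56 in FMT-SP. These low counts therefore do not show that the medians were stable.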
